A study of Mus musculus with 15 samples.

Results

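NPC1L1 and 7 genes that act with it or beside it at the brush border were followed in the distal jejunum of mice lacking Aster proteins and fed ezetimibe. They are Npc1l1, Scarb1, Cd36, Flot1, Flot2, Numb, Cdc42 and Lima1, taken by gene symbol from a table of 26844 genes. All 8 were present and all 8 were among the 14299 genes tested, which are those with a normalised count of at least 10 in at least 3 libraries. There were 15 bulk RNA-seq libraries from male C57BL/6 mice aged 13 to 15 weeks, in 4 groups. These were 4 libraries from Aster-B/C global knockout (KO) mice fed ezetimibe, 4 from wild-type (WT) mice fed ezetimibe, 3 from KO mice on the control diet and 4 from WT mice on the control diet. Both diets held 0.08% cholesterol, which the labels call a low cholesterol diet, and the ezetimibe diet held 0.01% ezetimibe besides. The knockout was global, so it was not limited to the intestine. The labels name a tissue piece and not sorted cells. They do not say how long the mice were fed, and no library is labelled as a pool.

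NPC1L1 is a sterol transporter of the enterocyte brush border and the protein that ezetimibe binds. When cholesterol is abundant, NPC1L1 is taken into the cell in clathrin-coated vesicles formed with NUMB and the AP2 adaptor, in membrane patches held by the flotillins FLOT1 and FLOT2. When cholesterol is scarce it returns to the surface along actin, with CDC42, LIMA1 and the motor protein MYO5B. SR-BI (gene Scarb1) and CD36 are scavenger receptors that bind sterols, lipoproteins or fatty acids at the same surface. The Aster proteins, encoded by Gramd1a, Gramd1b and Gramd1c, bring incoming cholesterol to the endoplasmic reticulum, where the sterol level sets the activity of the transcription factor SREBP2 (gene Srebf2). The question named in the title of the series is how Aster transport and NPC1L1 work together when cholesterol is absorbed from the diet.

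Recovered read totals ran between 13855034 and 19307079 per library. Gramd1c, which encodes Aster-C, averaged 122.8 ± 37.05 in KO on ezetimibe and 1211 ± 138.2 in WT on ezetimibe (SD, n = 4 each). On the control diet it averaged 142.7 ± 44.43 in KO (SD, n = 3) and 1383 ± 331.5 in WT (SD, n = 4). Gramd1b, which encodes Aster-B, averaged 1837 ± 166.7 in KO and 3241 ± 384.7 in WT on ezetimibe (SD, n = 4 each), and 1146 ± 159.9 in KO (SD, n = 3) and 3178 ± 868.4 in WT (SD, n = 4) on the control diet. The KO libraries therefore still held reads of both genes, and the deposited counts do not show which exons they came from. Each of 15 enterocyte markers was present in all libraries, while the sum of 6 endothelial markers lay between 40.11 and 95.36, and Adipoq, the defining adipocyte gene, between 0 and 40.7. Cidec, a lipid droplet gene on the adipocyte list, was the exception there, at 1980 to 4140.

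The stretch of DNA just before the RefSeq start of Npc1l1 is shown first, beside those of Insig1 and Srebf2. Insig1 is a target of SREBP2 and Srebf2 encodes SREBP2, and both transcripts rose on ezetimibe in KO mice as Npc1l1 did. Each is 250 bases long, from RefSeq on GRCm38.p6, 5′ to 3′ on the strand of the gene. Npc1l1 lies at chr11:6230246-6230495 on the minus strand, Insig1 at chr5:28071162-28071411 on the plus strand and Srebf2 at chr15:82147019-82147268 on the plus strand. The RefSeq start of Npc1l1 lies upstream of the start in the GENCODE annotation, from which the gene position given with the levels is taken. Capitals mark the E box CACGTG.
Npc1l1: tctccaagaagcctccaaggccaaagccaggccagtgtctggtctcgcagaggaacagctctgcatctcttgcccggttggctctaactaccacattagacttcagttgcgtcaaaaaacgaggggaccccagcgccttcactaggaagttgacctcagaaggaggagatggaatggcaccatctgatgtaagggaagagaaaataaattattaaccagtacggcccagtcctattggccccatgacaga
Insig1: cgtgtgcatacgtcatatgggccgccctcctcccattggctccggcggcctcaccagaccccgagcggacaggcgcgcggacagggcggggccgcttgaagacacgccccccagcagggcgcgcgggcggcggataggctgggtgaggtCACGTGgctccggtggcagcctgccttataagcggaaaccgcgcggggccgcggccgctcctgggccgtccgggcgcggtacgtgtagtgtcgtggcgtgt
Srebf2: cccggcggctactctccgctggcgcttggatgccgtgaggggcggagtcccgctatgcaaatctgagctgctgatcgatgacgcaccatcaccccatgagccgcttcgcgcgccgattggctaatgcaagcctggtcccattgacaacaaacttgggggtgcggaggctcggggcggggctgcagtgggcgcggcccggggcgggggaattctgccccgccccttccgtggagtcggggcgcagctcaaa
Windows of 300 bases, 250 before and 50 after each start, were searched on both strands for the sterol response element letters TCACNCCAC, for the E box CACGTG and for a direct repeat of AGGTCA with 1 base between its copies. The first letters were in 1.24% of 32851 windows, the E box in 7.15% and the direct repeat in 0.0396%. Of the 8 members 6 had a window, and none of these windows held any of the 3 motifs, which says only that these letters are not in these windows. The windows of Cd36 (chr5:17835847-17836146) and Lima1 (chr15:99820100-99820399) lie well inside the GENCODE spans of these genes. The bases before their GENCODE starts were therefore not searched. The Insig1 window held the E box with its first base 101 bases before the start; the motif is its own reverse complement, so it counts on both strands. The Srebf2 window held none of them.

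Levels of the members were compared per kb of exon, because a long transcript yields more reads than a short one. Npc1l1 (ENSMUSG00000020447, chr11:6211013-6230143, minus strand, mm10) was the most abundant, with a mean normalised count of 4473 per kb and rank 150 of 14294 genes. Cdc42, a small GTPase of the actin cytoskeleton (chr4:137319696-137357720), followed with 2933 per kb. Its range over the libraries, 2545 to 3275, overlapped that of Npc1l1, 2827 to 7911. Lima1, an actin-binding scaffold (chr15:99778470-99875456), had 1023 per kb, Cd36 (chr5:17781690-17888801) had 918.4 and Numb, an endocytic adaptor (chr12:83794034-83921934), had 607. The ranges of Lima1 and Cd36 overlapped, as did those of Cd36 and Numb. Flot1 (chr17:35823230-35832791) had 169.4 per kb, above the median tested gene at 49.33 per kb.

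Flot2 and Scarb1 were scarce. Flot2 (chr11:78037931-78060434) had 13.36 per kb and Scarb1 (chr5:125277087-125341094) had 4.535 per kb, with 10.3% of the ranked genes below Scarb1. Between 18 and 67 reads per library stood behind Scarb1 and between 21 and 58 behind Flot2, so counting error alone is large for both. The exons of 1 member overlapped another annotated gene: 166 bases of Numb (4.24% of its exon length) are shared with the antisense Gm46367, which had a mean normalised count of 5.359.

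**Figure D1:**
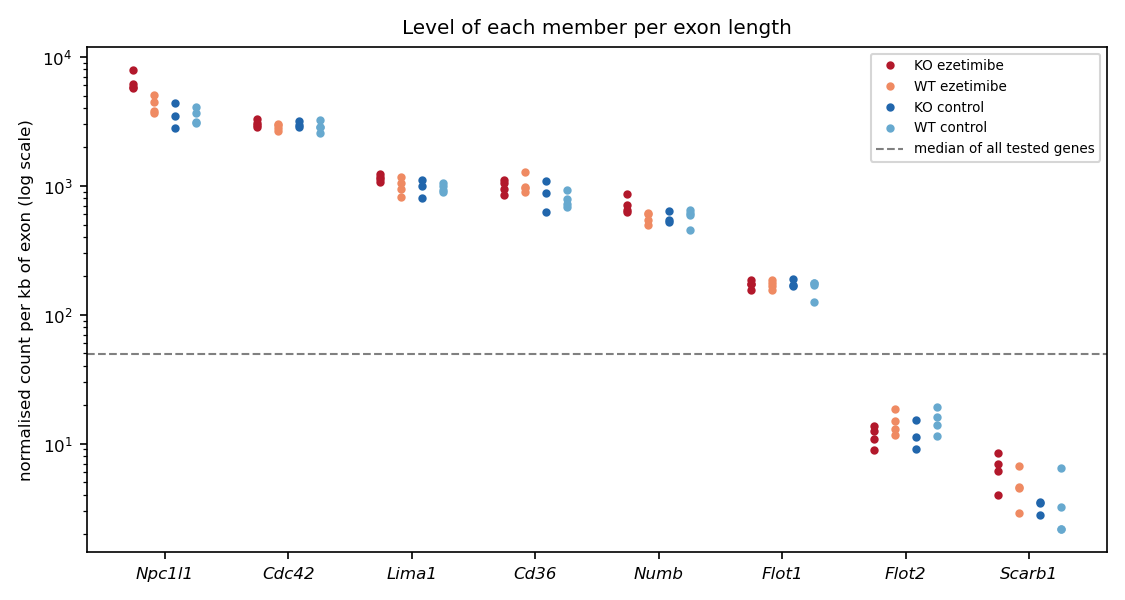
Normalised count per kb of exon on a log scale (vertical axis) for the 8 members, ordered by mean; each point is 1 library, coloured by group, and the dashed line is the median tested gene at 49.33 per kb. Npc1l1 and Cdc42 stood highest, and Flot2 and Scarb1 lay below the line in each of the 15 libraries.

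The transporter itself came first. Npc1l1 was higher on ezetimibe than on the control diet, and this passed the test in KO mice and for the mean of both genotypes. The normalised counts were 27277, 26229, 35340 and 25474 in the 4 KO libraries on ezetimibe. They were 19800, 16502, 22690 and 16851 in the 4 WT libraries on ezetimibe. On the control diet they were 15432, 12626 and 19462 in KO, and 18129, 13905, 16324 and 13664 in WT. All 4 KO libraries on ezetimibe lay above all other 11 libraries, while the WT libraries on ezetimibe overlapped both control groups. The share of all tested genes that separate groups in this way is not given, so the separation is a description only. KO replicate 3 on ezetimibe was the highest of all.

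In KO mice Npc1l1 averaged 28580 ± 4567 on ezetimibe (SD, n = 4) and 15840 ± 3436 on the control diet (SD, n = 3). The log2 fold change was 0.86 ± 0.168 (SE), a 1.82-fold difference, with an adjusted p of 0.0423 in limma's moderated test, Benjamini-Hochberg adjusted over all 14299 genes. Across those genes 0.727% passed in this comparison, and of the 8 members only Npc1l1 did. In DESeq2 10.3% of genes passed in the same comparison, so the share depended on the tool. The call rested on a narrow margin: it held in 7 of 15 fits that left out 1 library. It was lost without replicates 2 or 3 of KO on ezetimibe (adjusted p = 0.0772 and 0.116), replicates 1 or 2 of KO on the control diet (0.115 and 0.157), replicates 1, 2 or 4 of WT on ezetimibe (0.0601, 0.0562 and 0.0606) or replicate 3 of WT on the control diet (0.0501), and with the compared groups fitted alone (0.133). Replicate 3 of KO on ezetimibe and replicate 4 of WT on the control diet lie farthest apart on the leading principal component of all genes, and without both of them the adjusted p was 0.113. The log2 fold change stayed between 0.71 and 1.02 in these 15 fits.

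In WT mice the same diet contrast gave 18961 ± 2893 on ezetimibe and 15505 ± 2122 on the control diet (SD, n = 4 each). The log2 fold change was 0.29, with a 95% interval of -0.04 to 0.62 and an adjusted p of 0.999 in limma. Here 0.217% of genes passed, and none of the 8 members did. The interaction, which is the KO diet difference minus the WT one, was 0.57 ± 0.229 (SE) for Npc1l1, with an adjusted p of 0.681. In this test 0% of genes passed in limma, although 1004 genes had an unadjusted p under 0.05, Npc1l1 and no other member among them. A larger response in KO than in WT was therefore not shown by the test. Over both genotypes the diet difference was 0.57 ± 0.115 (SE, log2) with an adjusted p of 0.0164, in a comparison where 2.48% of genes passed. That call was lost without replicate 2 of KO on the control diet (0.50, adjusted p = 0.054) and held in the other 14 such fits; without the pair farthest apart on the leading component it was 0.49 (adjusted p = 0.0652).

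Between genotypes, Npc1l1 in KO and WT on the control diet differed by 0.02 on the log2 scale, with an interval of -0.34 to 0.38 (adjusted p = 0.979 in limma), and 0.371% of genes passed in this comparison. The sign of this difference turned under 2 other settings and 4 further sets of left-out libraries. On ezetimibe the KO libraries did not overlap the WT libraries, a description without the share of all genes beside it. The log2 fold change there was 0.59 ± 0.156 (SE), with an adjusted p of 0.223 in limma, where 0.00699% of genes (1 gene, Gramd1c) passed. DESeq2 on the recovered reads gave 0.59 with an adjusted p of 0.0396, in a fit where 0.804% of genes passed. The authors' deposited table, which holds 72 genes for this contrast, lists Npc1l1 with a log2 fold change of 0.59 and an adjusted p of 0.0413; none of the other members is in that table or in the one for the control diet. Averaged over both diets the genotype difference of Npc1l1 was 0.30 ± 0.115 (SE, log2), with an adjusted p of 0.133 in limma, where 4.04% of genes passed. These genotype and diet comparisons share their libraries and are not independent of one another.

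**Figure D2:**
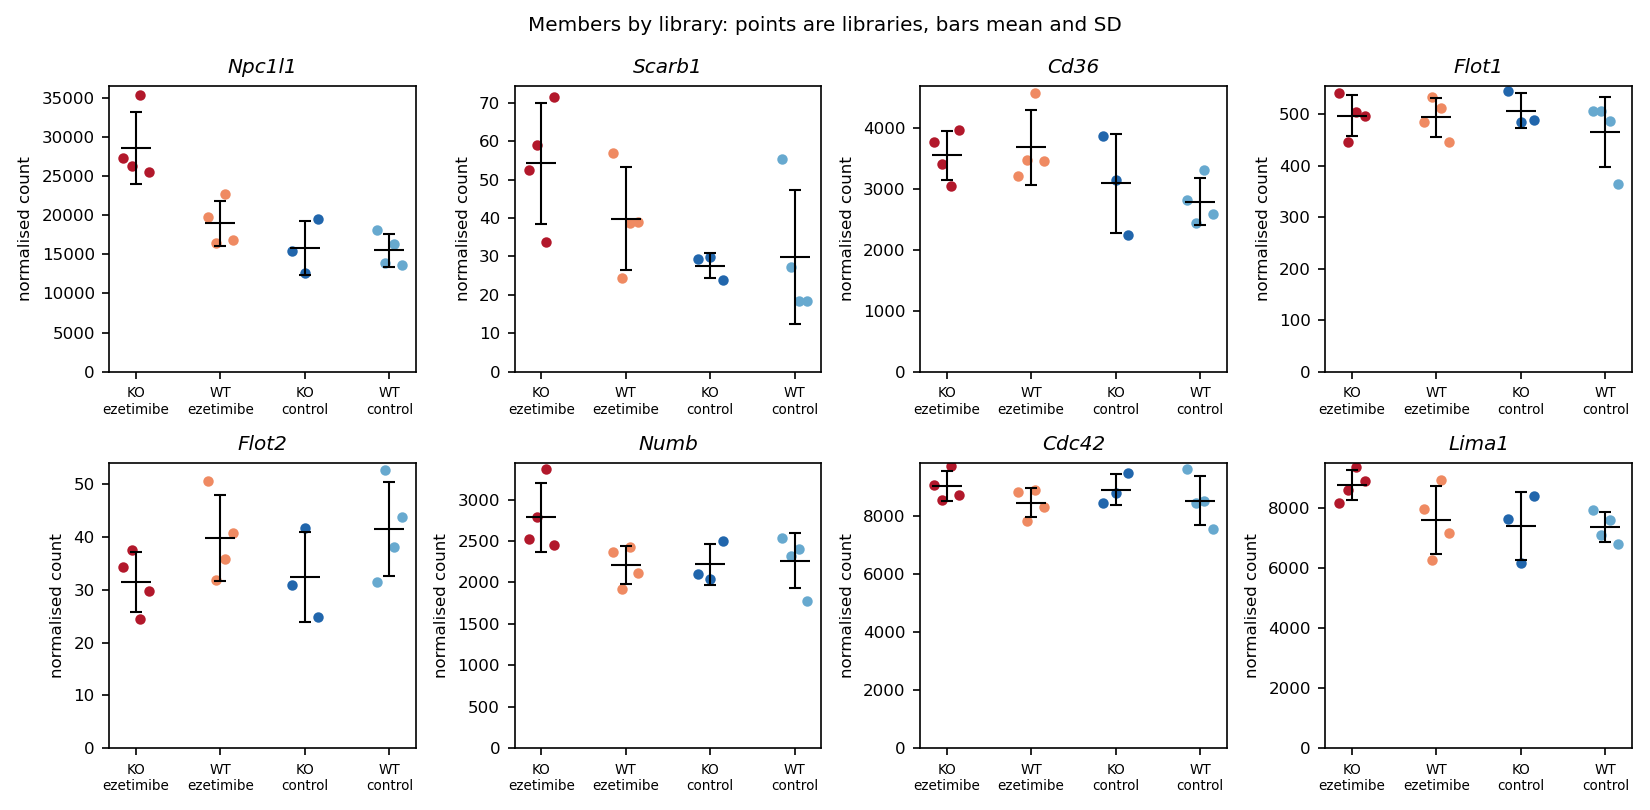
Normalised counts (vertical axes from 0) of the 8 members in the 4 groups; points are libraries and bars the mean and SD, with n = 4 except KO on the control diet, n = 3. All 4 Npc1l1 values of KO mice on ezetimibe, 25474 to 35340, lie above the other 11 libraries, and the other members show groups that mostly overlap.

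Enterocyte markers were on average highest in KO on ezetimibe, the group with the most Npc1l1. The mean log2 level of 15 enterocyte markers, called the enterocyte score here, was 15.51 ± 0.125 in KO on ezetimibe and 15.13 ± 0.173 in WT on ezetimibe (SD, n = 4 each). It was 15.17 ± 0.185 in KO (SD, n = 3) and 15.20 ± 0.229 in WT (SD, n = 4) on the control diet. The summed level of the 15 markers ran between 838313 and 1049048 in KO on ezetimibe, between 635720 and 794908 in WT on ezetimibe, between 638827 and 836790 in KO on the control diet and between 648944 and 896426 in WT on the control diet. All 15 markers were higher in KO on ezetimibe than in either WT on ezetimibe or KO on the control diet, though none passed the test, and with quantile normalisation 14 of 15 were. Between diets in WT 6 of the 15 were higher on ezetimibe, with a median difference of -0.0242 (log2). Npc1l1 itself differed there by 0.29 (log2), with an interval of -0.04 to 0.62, and did not pass. In each of the 4 groups the library with the most Npc1l1 was also the one with the highest score. The library with the least Npc1l1 had the lowest score in 3 of the 4 groups, KO on ezetimibe being the exception. In bulk tissue, fewer cells of a type and less RNA per cell cannot be told apart.

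Npc1l1 was therefore also set against the score within each library. The difference, Npc1l1 minus score on the log2 scale, was between -0.88 and -0.57 in KO on ezetimibe and between -0.992 and -0.831 in WT on ezetimibe. It was between -1.35 and -1.10 in KO and between -1.35 and -1.22 in WT on the control diet. On this scale all 8 ezetimibe libraries lay above all 7 control libraries, in both genotypes. How many of all tested genes do the same on this scale is not given. Fitted relative to the score, the diet difference of Npc1l1 was 0.52 in KO (adjusted p = 0.0353 in limma, in a fit where 0.685% of genes passed) and 0.44 over both genotypes (adjusted p = 0.00665, with 0.755% of genes passing). It was 0.35 in WT (adjusted p = 0.198). The genotype difference on ezetimibe was 0.22 on this scale (adjusted p = 0.1) and the interaction 0.16 (adjusted p = 0.439). Scaling to the score moved the median of all genes by -0.343 in the KO diet contrast and by -0.375 between genotypes on ezetimibe, so these are differences relative to enterocyte genes.

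**Figure D3:**
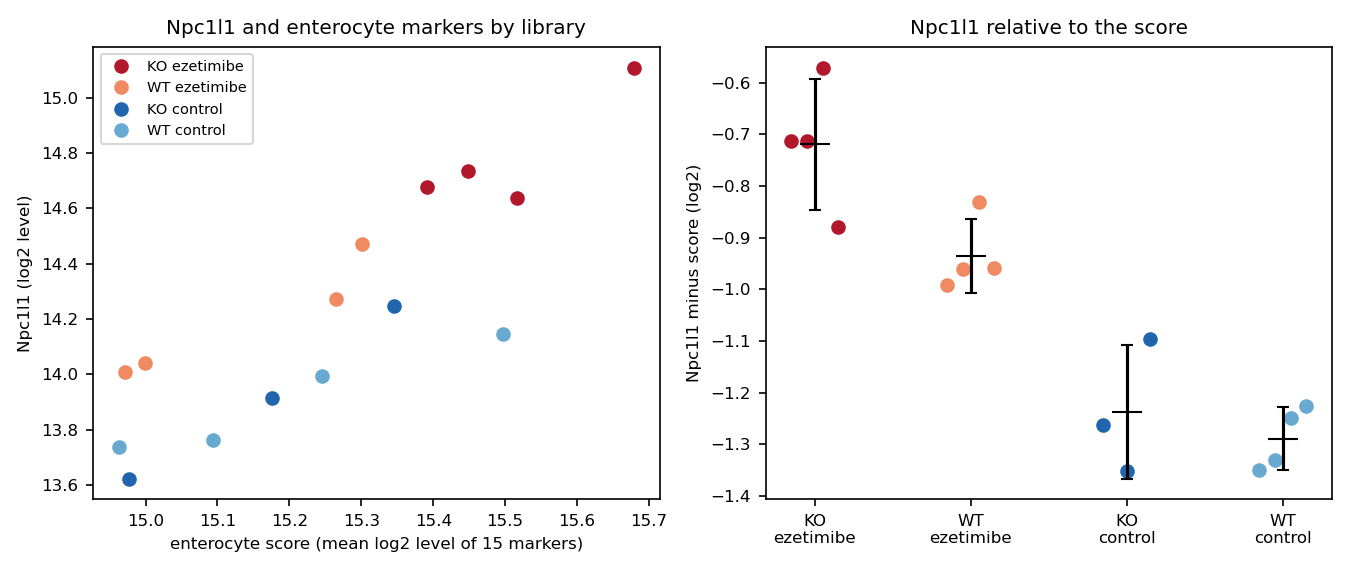
Left, log2 level of Npc1l1 against the enterocyte score (mean log2 level of 15 markers), 1 point per library; right, Npc1l1 minus the score by group, with mean and SD (n = 4, and n = 3 for KO on the control diet). On the right the ezetimibe libraries, at -0.992 or above, all lie above the control libraries, at -1.10 or below.

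Markers of other cells were summed in the same way. The sum of 7 markers of dividing crypt cells ran between 814.9 and 1174 in KO on ezetimibe and between 1273 and 1963 in WT on ezetimibe. On the control diet it ran between 492.6 and 1022 in KO and between 1217 and 3079 in WT. All 7 were lower in KO over both diets and 6 passed the test, where 4.04% of all tested genes passed. The sum of 6 macrophage markers ran between 86.4 and 273.4 in KO on ezetimibe and between 175.5 and 361.1 in WT on ezetimibe. It ran between 451.5 and 704 in KO and between 265.5 and 729.3 in WT on the control diet. In KO mice 6 of these 6 markers were lower on ezetimibe and 1 passed the test. The sum of 6 ileum markers was 15914 to 18355 in KO and 11601 to 15581 in WT on ezetimibe, and 14698 to 17531 in KO and 14157 to 20435 in WT on the control diet, and none of them passed in any comparison. The sum of 6 adipocyte markers, nearly all of it Cidec, ran between 2019 and 4079 in KO and 2750 and 3715 in WT on ezetimibe, and between 2668 and 4035 in KO and 2597 and 4148 in WT on the control diet. Of these markers 5 were tested, and their median genotype difference was 1.34 on ezetimibe (5 of 5 positive) and 1.70 on the control diet (4 of 5 positive) on the log2 scale, with none past the test; Cd36 is also expressed in adipocytes. The sum of 6 smooth muscle markers ran between 26.63 and 77.19 in KO and 30.19 and 103.3 in WT on ezetimibe, and between 37.33 and 83.4 in KO and 26.74 and 209.9 in WT on the control diet. Of these, 4 were tested and none passed, with a median diet difference of -0.73 (log2) over both genotypes. The part of these cells in the Npc1l1 and Cd36 values was not tested.

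The scavenger receptors did not pass the test in any comparison. Scarb1 had normalised counts of 52.48, 58.97, 33.86 and 71.37 in KO on ezetimibe and 57.02, 24.42, 38.68 and 38.99 in WT on ezetimibe. Its control diet values were 29.22, 29.86 and 23.83 in KO, and 55.38, 27.25, 18.54 and 18.34 in WT. The KO groups did not overlap between diets, though the share of all genes that do so is not given. By contrast 2 WT control libraries, replicate 1 at 55.38 and replicate 2 at 27.25, lay within the range of WT on ezetimibe. The diet difference was 0.90 ± 0.364 (SE, log2) in KO, with an interval of 0.13 to 1.68 and an adjusted p of 0.158 in limma. Over both genotypes it was 0.70 ± 0.248 (SE, log2; adjusted p = 0.135), and without replicate 1 of WT on the control diet it was 0.87 with an adjusted p of 0.0351. In WT it was 0.49, with an interval of -0.23 to 1.21. Between genotypes Scarb1 differed by 0.45 on ezetimibe (interval -0.27 to 1.16).

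Cd36, the fatty acid and lipoprotein receptor, had normalised counts of 3780, 3408, 3058 and 3981 in KO on ezetimibe and 3213, 3482, 4581 and 3471 in WT on ezetimibe. Those of the control diet were 3881, 3156 and 2256 in KO, and 2827, 2450, 3323 and 2590 in WT. The lowest ezetimibe library of WT mice, 3213, lay below the highest control library, 3323, so the groups overlapped by a single value on each side. The diet difference was 0.39 ± 0.157 (SE, log2) in WT, with an unadjusted p of 0.0231 and an adjusted p of 0.826 in limma. It was 0.23 in KO (adjusted p = 0.438) and 0.31 ± 0.115 over both genotypes (SE; adjusted p = 0.149). In KO the sign of the Cd36 difference turned relative to the enterocyte score, to -0.12, where the median of all genes was -0.338. Averaged over both diets the genotype difference was 0.04 (interval -0.21 to 0.28), and its sign turned with quantile normalisation and relative to the score.

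The adaptor and motor-scaffold genes followed. Numb had normalised counts of 2528, 2786, 3367 and 2454 in KO on ezetimibe and 2370, 1927, 2428 and 2118 in WT on ezetimibe. Values were 2107, 2042 and 2502 in KO, and 2535, 2323, 2398 and 1779 in WT, on the control diet. The 2 genotypes did not overlap on ezetimibe, by a margin of 2454 in the lowest KO library against 2428 in the highest WT library. Here too the share of all genes that separate likewise is not given. The genotype difference on ezetimibe was 0.33 ± 0.127 (SE, log2; adjusted p = 0.257 in limma), and the diet difference in KO was 0.32 ± 0.138 (SE, log2; adjusted p = 0.177). Relative to the enterocyte score both turned sign, to -0.05 and -0.02, where the medians of all genes were -0.377 and -0.338.

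Lima1 had normalised counts of 8164, 8572, 9338 and 8877 in KO on ezetimibe and 7954, 6262, 8926 and 7163 in WT on ezetimibe. Its values were 7617, 6152 and 8369 in KO, and 7933, 7103, 7583 and 6784 in WT, on the control diet. KO on ezetimibe held 3 of the 4 highest libraries, but its range overlapped that of every other group except WT on the control diet. The diet difference in KO was 0.25 ± 0.125 (SE, log2; adjusted p = 0.239 in limma) and the genotype difference on ezetimibe 0.22 ± 0.116 (SE, log2; adjusted p = 0.341). Relative to the enterocyte score these were -0.09 and -0.16, where the medians of all genes were -0.338 and -0.377. Numb and Lima1 thus had the higher values in KO on ezetimibe, where the enterocyte score was also highest, and neither passed the test.

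Over both genotypes, Cdc42, Flot1 and Flot2 had the smallest diet differences of the 8 members, at 0.01, 0.03 and -0.04 on the log2 scale. Cdc42 averaged 9005 ± 522.5 in KO and 8444 ± 485.7 in WT on ezetimibe (SD, n = 4 each). Its means were 8884 ± 529.5 in KO (SD, n = 3) and 8514 ± 834.5 in WT (SD, n = 4) on the control diet. Over both genotypes its diet difference was 0.01 on the log2 scale, with an interval of -0.13 to 0.14, and its sign turned with the scaling. All 15 libraries fell between 7549 and 9714, and the groups overlapped throughout.

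Flot1 averaged 497.4 ± 39.45 in KO and 494.2 ± 37.49 in WT on ezetimibe (SD, n = 4 each), and 506.9 ± 34.09 in KO (SD, n = 3) and 466.2 ± 68.24 in WT (SD, n = 4) on the control diet. Its diet difference over both genotypes was 0.03 (log2), with an interval of -0.14 to 0.21; the sign turned relative to the enterocyte score and without the pair of libraries farthest apart on the leading component. Flot2 averaged 31.53 ± 5.642 in KO and 39.83 ± 8.109 in WT on ezetimibe (SD, n = 4 each), and 32.46 ± 8.473 in KO (SD, n = 3) and 41.53 ± 8.97 in WT (SD, n = 4) on the control diet. It was lower in KO than in WT on both diets, with a log2 difference of -0.34 ± 0.166 (SE; adjusted p = 0.244 in limma) averaged over the diets, and the groups overlapped. The Flot1 difference between genotypes averaged over the diets was 0.07 (adjusted p = 0.659 in limma). It turned to -0.10 relative to the enterocyte score, where the median of all genes was -0.173.

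**Figure D4:**
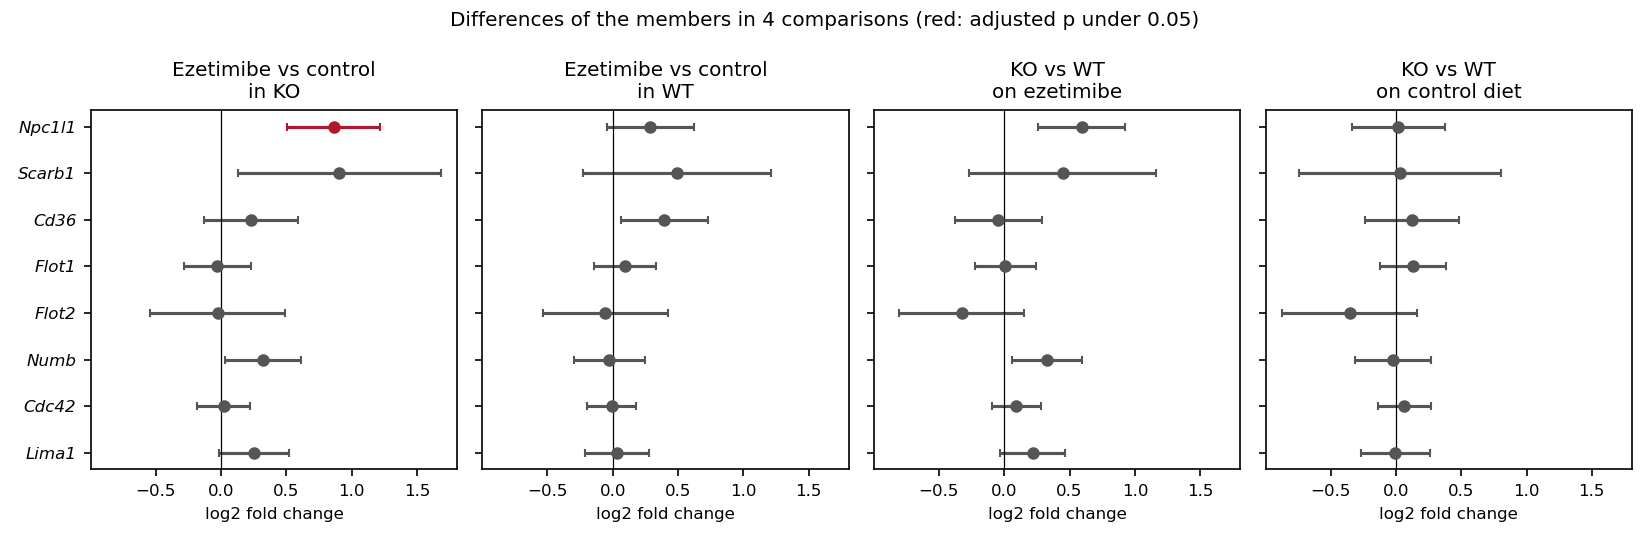
Log2 fold change (horizontal axis) with its 95% interval for each of the 8 members in 4 comparisons; red marks an adjusted p under 0.05 in limma. Npc1l1 in KO mice between diets, at 0.86, is the only red point, and intervals that lie across 0, including those of Cdc42 and Flot1 in all 4 panels, leave the direction of those genes undetermined.

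The median size of the members' differences was set beside that of all tested genes. The median absolute log2 fold change of the members was 0.24 between diets in KO, against 0.238 over all tested genes, and 0.146 between diets over both genotypes, against 0.151. On ezetimibe it was 0.27 between genotypes, against 0.198. On the control diet it was 0.0489 between genotypes, against 0.183. Between diets in WT it was 0.0744, against 0.117. Between genotypes over both diets it was 0.13, against 0.148, and for the interaction 0.193, against 0.22. An unadjusted p under 0.05 was found for 3 of 8 members between diets in KO (22.9% of all tested genes), for 3 between diets over both genotypes (20.2%), for 1 between diets in WT (5.08%), for 2 between genotypes on ezetimibe (16.4%), for 1 between genotypes over both diets (22.2%) and for 0 between genotypes on the control diet (14.7%).

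Genes whose pattern over the 15 libraries was most like that of Npc1l1 were sought among 9690 genes, by the root mean square difference of log2 levels after centring each gene. The 6 closest were Unc5b, Ankrd50, Tnrc18, Mxd1, Hectd4 and Ndst1, at 0.118 to 0.155, where Npc1l1 itself spread by 0.41 around its mean. Mxd1, a repressor of the MAX network, was the most abundant of them with a mean normalised count of 13428. Numb ranked 391, the brush border genes Anpep and Vil1 ranked 421 and 431, and Lima1 ranked 590. The SREBP2 pathway genes Srebf2 and Insig1 ranked 2242 and 6483, and Cd36 ranked 3703. For Cd36 the closest genes were Zc3h10, Ppp1r18, Scamp5, Trim26, Vps11 and Eif4e3, at 0.166 to 0.19. For Scarb1 they were Sardh, Proz, Bmp1, Bmx, Ace and Sh2d7, at 0.355 to 0.379. These libraries share their depth and tissue makeup, and the ranks are a description.

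Of 26 other genes of NPC1L1 endocytosis and recycling, none passed between diets in limma, in either genotype or over both. DESeq2 called Clta between diets in KO, at -0.29 (log2; adjusted p = 0.042), in a fit where 10.3% of genes passed. Over both diets 2 rose in KO: Ap2a2, a large subunit of the AP2 adaptor, and Clta, a clathrin light chain. In this comparison 4.04% of all tested genes passed, and 1.64% of all tested genes passed with a rise. Ap2a2 averaged 4689 ± 152.9 in KO and 3763 ± 204.9 in WT on ezetimibe (SD, n = 4 each), a mean genotype difference of 0.33 ± 0.0649 (SE, log2; adjusted p = 0.0221 in limma). Clta averaged 3658 ± 252.6 in KO (SD, n = 3) and 2771 ± 243.8 in WT (SD, n = 4) on the control diet, and 2988 ± 259.3 and 2761 ± 204.1 in KO and WT on ezetimibe (SD, n = 4 each). The mean genotype difference of Clta was 0.26 ± 0.0666 (SE, log2; adjusted p = 0.0435), a call that held in 2 of 15 fits that left out 1 library; that of Ap2a2 held in 12 of 15. Relative to the enterocyte score neither passed (adjusted p = 0.208 for Ap2a2 and 0.635 for Clta). Of the 26 genes 25 had a positive genotype difference over both diets, with a median of 0.134 against -0.00206 over all genes. Relative to the enterocyte score 10 of 26 did, with a median of -0.0364 against -0.173 over all genes.

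Among 11 partners of SR-BI and CD36, none passed between diets in limma. Scarb2, a lysosomal relative of Scarb1, differed by -0.51 ± 0.144 in KO and by -0.32 ± 0.0979 over both genotypes (SE, log2; adjusted p = 0.0694 and 0.0835 in limma). DESeq2 called it in both comparisons, at -0.51 and -0.33 (log2; adjusted p = 0.0229 and 0.0382), and 7.07% of genes passed over both genotypes in that tool. Fyn, a kinase that signals downstream of CD36, fell in KO over both diets, with a log2 difference of -0.70 ± 0.145 (SE; adjusted p = 0.0242 in limma; held in 11 of 15 fits that left out 1 library). It averaged 115.3 ± 13.55 in KO and 183.4 ± 26.74 in WT on ezetimibe (SD, n = 4 each), and 84.17 ± 25.37 in KO (SD, n = 3) and 139.6 ± 34.56 in WT (SD, n = 4) on the control diet. Fyn is also expressed in lymphocytes. The list had a median genotype difference of 0.0704.

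Of 15 regulators of these genes, Insig1 and Srebf2 rose on ezetimibe in both genotypes. The share of all tested genes that passed between diets was 0.727% in KO and 0.217% in WT. Insig1, which holds SREBP2 in the endoplasmic reticulum and is itself an SREBP2 target, averaged 2746 ± 219.3 in KO and 1586 ± 185.2 in WT on ezetimibe (SD, n = 4 each). On the control diet it averaged 1306 ± 105.8 in KO (SD, n = 3) and 715.9 ± 169.1 in WT (SD, n = 4). The diet difference was 1.07 ± 0.149 in KO and 1.17 ± 0.138 in WT (SE, log2; adjusted p = 0.00613 and 0.000788 in limma). Insig1 also differed by genotype over both diets, by 0.84 ± 0.101 (SE, log2; adjusted p = 0.00141). The order of the 4 groups was thus KO on ezetimibe, WT on ezetimibe, KO on the control diet and WT on the control diet for the means of Insig1 and of Npc1l1, although for Npc1l1 the last pair differed by less than its spread.

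Srebf2 averaged 2245 ± 230.2 in KO and 2041 ± 187.4 in WT on ezetimibe (SD, n = 4 each), and 1457 ± 8.493 in KO (SD, n = 3) and 1182 ± 192 in WT (SD, n = 4) on the control diet. Its diet difference was 0.62 ± 0.122 in KO and 0.80 ± 0.113 in WT (SE, log2; adjusted p = 0.0425 and 0.00521 in limma); the first held in 7 of 15 fits that left out 1 library, and relative to the enterocyte score neither passed (adjusted p = 0.351 and 0.0951). Ppara, the nuclear receptor of fatty acid oxidation, averaged 173.4 ± 46.52 in KO and 175.6 ± 39.76 in WT on ezetimibe (SD, n = 4 each), and 245.6 ± 82.14 in KO (SD, n = 3) and 318.1 ± 56.8 in WT (SD, n = 4) on the control diet. It fell on ezetimibe over both genotypes, with a difference of -0.67 ± 0.165 (SE, log2; adjusted p = 0.0469), which held in 3 of 15 such fits.

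Of 11 genes that handle sterols after uptake, Abca1 and Abcg5 fell on ezetimibe over both genotypes and none rose, where 2.48% of all tested genes passed. Abca1, the LXR target that exports cholesterol from the cell, averaged 100.6 ± 12.59 in KO and 183.3 ± 37.93 in WT on ezetimibe (SD, n = 4 each). On the control diet it averaged 560.5 ± 107.2 in KO (SD, n = 3) and 1759 ± 379.5 in WT (SD, n = 4). Its diet difference was -2.86 ± 0.132 (SE, log2; adjusted p = 6.83e-09 in limma) and its genotype difference -1.24 ± 0.132 (SE, log2; adjusted p = 0.000386). Abcg5, part of the pump that returns sterols to the lumen, differed by -0.73 ± 0.0997 between diets (SE, log2; adjusted p = 0.00153). Gramd1a, which encodes Aster-A and was not among the deleted genes, fell in KO over both diets, with a difference of -0.61 ± 0.127 (SE, log2; adjusted p = 0.0242).

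**Figure D5:**
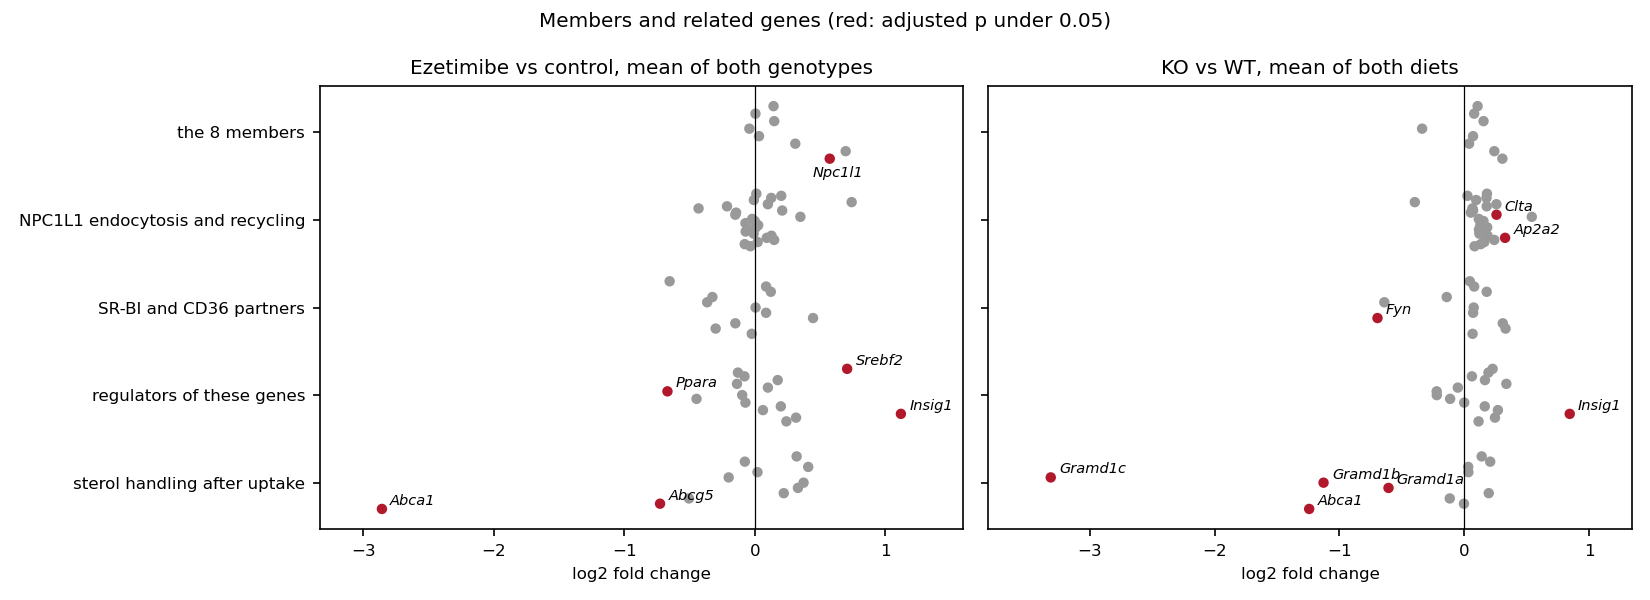
Log2 fold change (horizontal axis) of the 8 members and of 4 lists of related genes, between diets over both genotypes (left) and between genotypes over both diets (right); each point is a gene, and red, named points have an adjusted p under 0.05 in limma. Npc1l1, at 0.57, is the only member in red on the left, beside Insig1 at 1.12 and Abca1 at -2.86, and no member is red on the right.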

How the data were processed

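Per the labels' protocols, frozen tissue gave total RNA by TRIzol, and libraries were prepared with an NEBNext Ultra II kit. FastQC, STAR 2.6.0c, DESeq2 and the mm10 build are named in the submitters' processing notes. The labels and headers do not give the read counter or its use of strand. The main table held a signal, which the authors deposited as DESeq2-normalised counts. All values (100%) were whole multiples, within 0.01, of what 1 read is worth in that library, so whole reads were recovered for the count tests. The 2 tables of the authors' own comparisons hold, per the file headers, a mean signal, log2 fold changes, p-values with adjusted values, fold changes as a ratio, and the Wald statistic as a score; they were used only where named.

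The main test was limma 3.58.1 (R 4.3.3, trend option) on log2(value + 1), which understates changes of low genes. It was fitted on all 15 libraries and 14299 genes, with adjusted p under 0.05 called, in 7 contrasts; mean contrasts weight both genotypes or both diets equally. Alternatives included edgeR 4.0.16 and DESeq2 1.42.0 on recovered reads, other pseudocounts, filters and scalings, and leaving out libraries. The limma fit was tested on simulated data. Positions and exon lengths came from GENCODE M21 on GRCm38, the assembly of mm10 (26825 of 26844 identifiers matched, 99.93%), and promoter windows from RefSeq on GRCm38.p6. The labels do not say that each library is a separate mouse, and p-values then describe only how far these libraries spread, which may be technical.

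The members and gene lists were chosen with earlier results of these data known. Besides the members, the text names each list gene past the threshold in a comparison that it describes, and the 6 genes most like Npc1l1, Cd36 and Scarb1 among tested genes with a mean of at least 50 and a symbol that is not a gene model. Some related genes are not reported here.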

Additional observations from a re-analysis of the deposited data

Results flagged for a closer look

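One member value stood apart from its group. Flot1 in replicate 4 of WT on the control diet had a normalised count of 364.8, where the nearest of the other 3 libraries had 487.3; the gap was 0.863 of the range of the group. In all, 24 groups of 4 libraries were examined in this way (8 genes in 3 groups), and chance flags about 1 in 20. The 3 libraries of KO on the control diet were too few to examine.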

How the results depend on the processing

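Of the calls on Npc1l1, the diet difference in KO passed in 12 of 14 other settings and the one over both genotypes in 12 of 13. Both were lost without the 2 libraries farthest apart on the leading principal component (0.7549 and 0.4927), a choice made after seeing the data. The first was also lost with the compared groups alone (0.8612 with an adjusted p of 0.133 in limma), where fewer samples estimate the spread. In each case 0 members then passed, while 12 and 108 genes passed without the pair and 16 with the compared groups alone. When 1 library was left out, the diet difference of Npc1l1 ranged from 0.7089 to 1.021 in KO, with 0 to 1 members called. Over both genotypes it ranged from 0.4984 to 0.6545, with 0 to 2 called. Among all tested genes 5 to 456 passed in KO and 149 to 575 over both genotypes in these fits. DESeq2 called 1 member between genotypes on ezetimibe, Npc1l1 at 0.5904, where 0.804% of genes passed. Between genotypes on the control diet the sign of Npc1l1 turned with quantile normalisation (-0.02165), with the replicate block (-0.03553) and without the pair on the leading component (-0.03928), and leaving out 1 library gave -0.1416 to 0.1705.

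Whether replicate numbers pair the libraries was not settled. The 21 same-numbered pairs had correlations of their deviations from -0.242 to 0.331, and 12 of them were over 0.1. Only 2 of 15 libraries lay closest to their own number. With replicate number as a block, the SE of the Npc1l1 diet difference in KO was 0.108, against 0.168 without it. With the replicate block 2 members passed between diets in KO (Npc1l1 and Numb) where 1915 genes did, against 104 without it, and 1 between genotypes over both diets (Npc1l1, 0.278) where 922 did, against 578. Scarb2 also passed between diets with the block, in KO (-0.5333) and over both genotypes (-0.3371).

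The list below is not complete. Over all comparisons, the members other than Npc1l1 changed sign in 117 of 1385 values. These included 18 of 201 between genotypes on the control diet, 16 of 201 between diets in WT and 24 of 194 in the interaction. Differences picked for this check that did not pass in limma on all libraries changed sign as follows. Of these, Ap2a2 between genotypes on ezetimibe passed in DESeq2 (0.3157, adjusted p = 0.0483). Numb between diets in KO passed with the replicate block (0.385, adjusted p = 0.0328 in limma). Relative to the enterocyte score, the median of all genes was -0.377 between genotypes on ezetimibe and -0.338 between diets in KO. It was -0.14 between diets over both genotypes and -0.173 between genotypes over both diets. On this scale Numb was -0.04785, Lima1 -0.1589 and Ap2a2 -0.05691 between genotypes on ezetimibe. Between diets in KO, Cd36 was -0.1162, Numb -0.0203 and Lima1 -0.08962. Between diets over both genotypes, Flot1 was -0.1062, Cdc42 -0.1334 and Rab11b, a recycling GTPase, -0.01232. Between genotypes over both diets, Cd36 was -0.1327, Flot1 -0.1008, Numb -0.01714, Cdc42 -0.09205 and Lima1 -0.06438. Quantile normalisation gave -0.04863 for Cd36, -0.004454 for Cdc42 and -0.006218 for Lima1 between genotypes over both diets. The diet difference of Cdc42 over both genotypes was -0.01177 with TMM, -0.03686 with quantile normalisation, -0.01332 with edgeR and -0.01178 with limma-voom. Without the pair on the leading component, the same difference was -0.02801 for Flot1, 0.03101 for Flot2 and -0.04113 for Cdc42. Leaving out 1 library, it ranged from -0.0241 to 0.06005 for Flot1, from -0.1258 to 0.05374 for Flot2 and from -0.02261 to 0.03482 for Cdc42, and the genotype difference of Cd36 from -0.05195 to 0.1436. The cause was not tested.

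Counts of called genes depended on the tool: between diets in KO, 104 genes passed in limma, 71 in edgeR and 1155 in DESeq2, and between genotypes on the control diet 53, 13 and 442. Low read counts limit Scarb1 and Flot2.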
